A study of Drosophila melanogaster with 56 samples.

Results

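Females in which *Obp50a* was the only functional member of the *Obp50a–d* cluster were compared with females in which all of its paralogs were inactive. The members were defined by sex and genotype alone, with earlier results of these data known, and are 8 of the 56 libraries of the series. They are the 4 female Obp50a libraries, 61_S41 and 62_S42 of line 1 and 83_S35 and 84_S36 of line 11, and the 4 female Obp50Neg libraries, 5_S5 and 6_S6 of line 30 and 1_S1 and 2_S2 of line 31. Both genotypes were built in the Canton S (B) background by the same steps. The native cluster was removed with CRISPR/Cas9, and a modified copy was returned to the same place with the PhiC31 integrase. The Obp50a genotype carried *Obp50a+b-c-d-* and Obp50Neg carried *Obp50a-b-c-d-*, where a minus sign marks consecutive premature stop codons near the start of the coding sequence. RNA of a paralog with a minus sign can still be counted. Both groups also share the short attR and LoxP remnants beside the cluster and a single base substitution in each neighbouring gene, *CG34444* and *CG34185*. Every library was made from a pool of 30 whole mated females, which by the study's husbandry were 3 to 5 days old, and each line is 1 separate reinsertion, so libraries of 1 line share their founder. The comparison asks which transcripts differ in females when *Obp50a* alone can make its protein.

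Odorant-binding proteins are small secreted proteins, first known as carriers of odorants in the fluid of sensory hairs, and many are also made outside the sensory organs. The *Obp50* paralogs are known from metabolic tissues and from male reproductive organs. In mating, a *Drosophila* male transfers sperm together with seminal fluid from the accessory glands, ejaculatory duct and ejaculatory bulb. Sex peptide and other seminal proteins alter egg laying, sperm storage and remating in the female. These proteins are made by the male, so their transcripts are ordinarily scarce in females. RNA of whole flies cannot tell fewer cells of a type from less RNA per cell.

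Total counts ranged from 17856702 to 25955525 in Obp50a and from 21066439 to 26361036 in Obp50Neg. The paths in the count files divide the series into a first set (39 libraries), a second (14) and a redo set (3), and what these sets are is not given in the sources used here. The 4 Obp50a libraries compared here come from the second set and the 4 Obp50Neg libraries from the first, so genotype and set cannot be told apart within these 8 libraries. Of the other female libraries used, 14 are in the first set and 4 in the second, and their values are given below beside the results. The yolk protein genes, markers of the adult female, summed to between 21265 and 32145 CPM in Obp50a and between 27393 and 32110 CPM in Obp50Neg, where CPM is the number of counts per 1000000 counts of a library, with library sizes scaled by TMM. Males of these genotypes held between 12.8 and 97.7 CPM, except 1 male Obp50a library at 1680 CPM.

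The lines of the Obp50a genotype stood apart in transcript length. Relative to each gene's median over females, the median log2 level of genes with at least 5000 bases of exon was 0.39 in 61_S41, 0.44 in 62_S42, -0.55 in 83_S35 and -0.56 in 84_S36. Long transcripts were thus higher in line 1 and lower in line 11, and the Obp50Neg libraries lay between, from -0.25 to 0.04. Genes with rRNA in their symbol summed to 3159 and 3437 CPM in line 1, to 12365 and 12314 CPM in line 11, and to between 3567 and 14343 CPM in Obp50Neg. In 672 genes both line 1 libraries exceeded 4 times both line 11 libraries, and in 135 genes the reverse was seen. Of those genes, 10 and 5 respectively were among the genes called below.

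The reinserted genes themselves were scarcely read in females. *Obp50a* (FBgn0050067, 2R, 14370331 to 14371116 in the authors' release 6 annotation) had 0 counts in all 4 Obp50a libraries and was at 0, 0.194, 0.0413 and 0 CPM in 5_S5, 6_S6, 1_S1 and 2_S2. No difference was detectable at this depth, since the level that 3 counts give was 0.151 CPM in Obp50a. In males of the same genotypes *Obp50a* averaged 0.375 CPM in Obp50a and 0.324 CPM in Obp50Neg. Since alleles with stop codons are still counted, these values do not check the genotype labels. *Obp50b* was not tested because too few counts were read, *Obp50c* (log2 fold change -1.17, adjusted p = 0.501) and *Obp50d* (0.78, adjusted p = 0.788) did not pass the test, and both groups overlapped for each. The neighbours *CG34444* (2.18, adjusted p = 0.499) and *CG34185* (1.51, adjusted p = 0.601) did not pass it either. Of the 30 genes tested within 100 kb of the cluster, 0 were called, and within 500 kb 1 of 144 was called, *CG12860*. Of all genes tested 1.89% were called, so few calls could fall in windows of this size.

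Of 15675 genes tested with edgeR (quasi-likelihood, Benjamini-Hochberg adjusted), 297 (1.89%) were called at an FDR of 0.05. Of these, 265 (1.69%) were lower and 32 (0.204%) were higher in Obp50a than in Obp50Neg. The smallest absolute log2 fold change among them was 0.48, and 272 changed by at least 1 on the log2 scale. The groups of 4 did not overlap in 243 of the 297 genes, against 7.92% of all genes tested. Among the lower genes this held for 222 (6.46% of all genes were apart in that direction). Over all genes tested the median log2 fold change stood at -0.05. Calls were made on every major chromosome arm, from 1.03% of the genes tested on X to 2.34% on 2L, and 0 of 46 genes were called on Y. The count moved with single libraries. Without 6_S6 it fell to 56 genes, 54 of them among the 297, without 84_S36 to 106 and without 62_S42 to 135. Adding the library set as a term left 11 genes, a fit of the females alone left 1, and 1 gene was called with line as a random effect.

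Genes expressed in males took a large share of the lower genes in the fit of all libraries. This share fell without 6_S6, and fell further in a fit of the 8 libraries alone. A class of 2059 genes (13.1% of those tested) averaged at least 10 times as high in the 20 male as in the 18 female libraries of the other 6 genotypes. This class was defined after the values were seen, from libraries outside the comparison. It held 186 of the 265 lower genes (70.2%) and 2 of the 32 higher genes. Without 6_S6 it held 22 of the 51 genes called lower, and in a fit of the 8 libraries alone 1 of the 58 called lower. In the fit of females alone 0 genes of the class were called. The fit of all libraries took its dispersion, the spread between libraries of a group, from both sexes together. The common dispersion was 0.104 over both sexes, 0.141 in females alone and 0.0776 in males alone. The median level of the 186 genes was 0.0832 CPM in Obp50a females and 0.864 CPM in Obp50Neg females, against 75.5 and 66.2 CPM in males of these genotypes. Obp50Neg females thus held a median of 1.19% and Obp50a females 0.0832% of the level of their own males. Over all 2059 genes those medians were 2.07% and 0.918%.

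**Figure D1:**
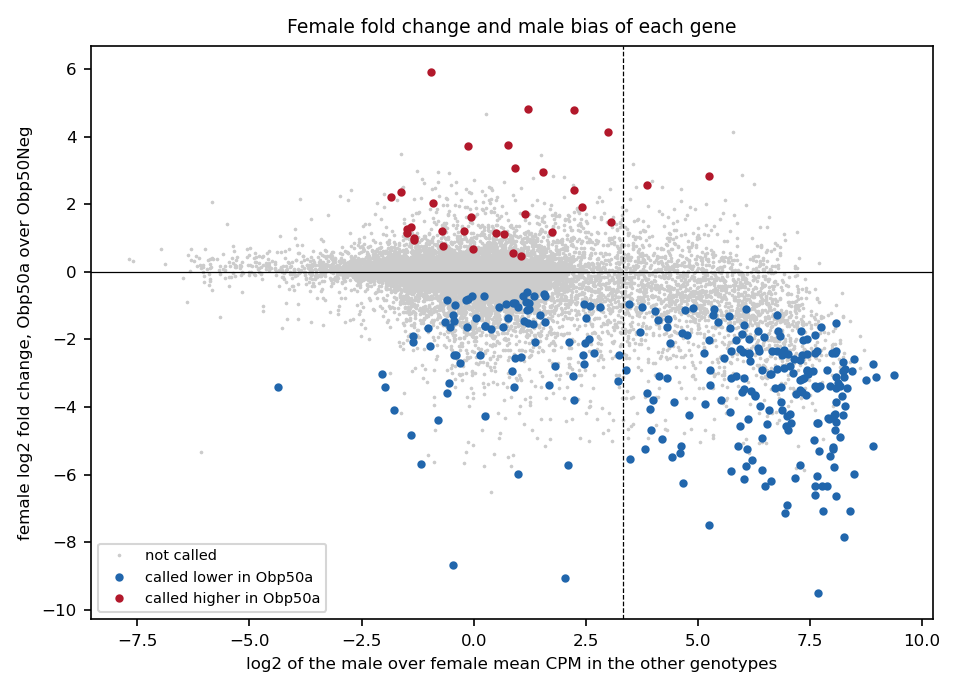
Female log2 fold change of Obp50a over Obp50Neg (vertical axis) against the log2 ratio of male to female mean CPM in the other 6 genotypes (horizontal axis), 1 point per gene tested. The dashed line marks a ratio of 10; 186 of the 265 genes called lower (blue) lie to its right, and 30 of the 32 called higher (red) to its left.

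The seminal fluid transcripts were the largest named group among them. Of 74 accessory gland and seminal fluid genes tested, 15 fell and 0 rose (20.3% called, against 1.89% of all genes tested). In the male class 186 of 2059 genes were called lower, with a median log2 fold change of -0.95 over the class. The median of the 74 genes was -2.21, or -1.995 with genes read in no Obp50a library set at their bound. Their summed level was 65.5, 55.8, 56.1 and 60.9 CPM in 61_S41, 62_S42, 83_S35 and 84_S36. It was 121, 451, 125 and 120 CPM in 5_S5, 6_S6, 1_S1 and 2_S2. The 4 Obp50a libraries lay close together and all below Obp50Neg, in which 6_S6 stood far above the other libraries. In males the same sum was 28456 to 31541 CPM in Obp50a and 17846 to 22958 CPM in Obp50Neg, the opposite order to that in females. Without 6_S6, 0 of the 74 genes were called, and without 62_S42 or 84_S36 8 were.

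**Figure D2:**
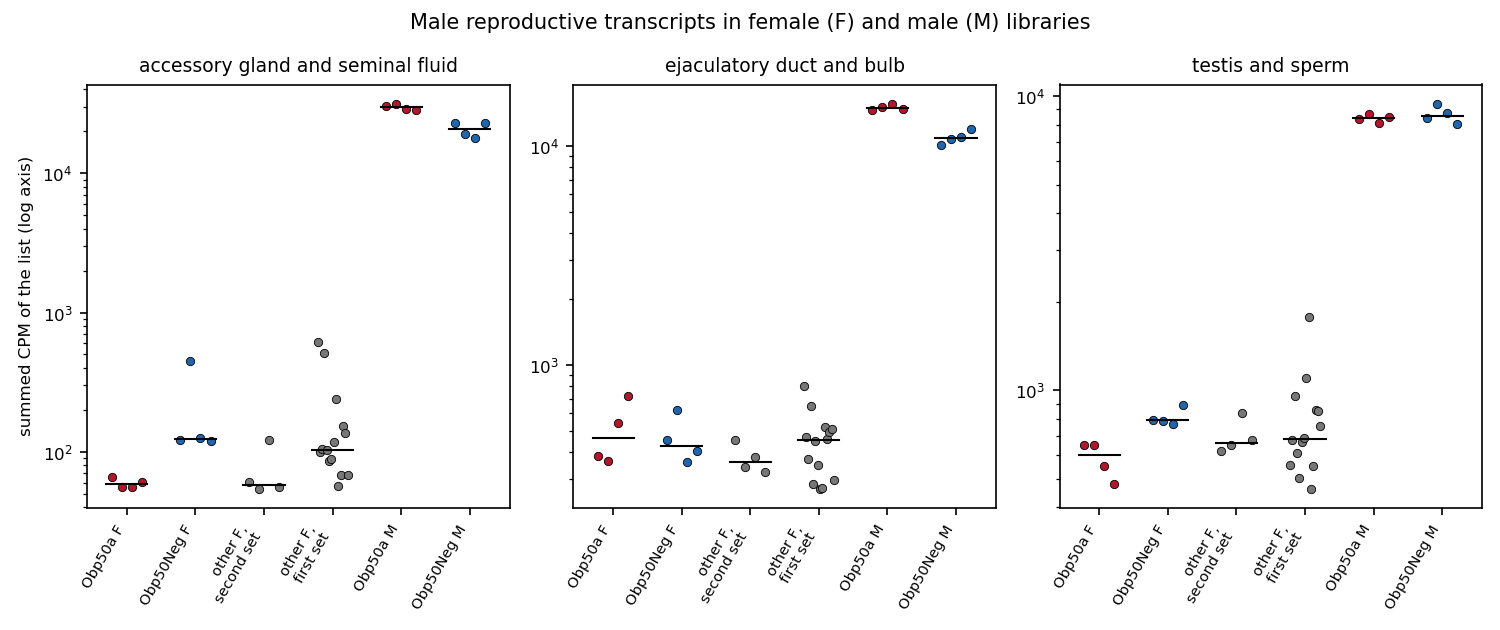
Summed CPM (log axis) of the accessory gland, ejaculatory and testis lists, 1 point per library and a line at the median, for females (F) and males (M). In the accessory gland panel the Obp50a females lie at 55.8 to 65.5 CPM, below the Obp50Neg females at 120 to 451 CPM; other females of the second set had a median of 58.2 CPM and those of the first set 104 CPM.

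In the 18 other females the sum ranged from 56.8 to 615 CPM (median 104) in the first set and from 54.4 to 122 CPM (median 58.2) in the second, so the sets overlapped. Obp50a females therefore lay within the range of other females of their own set. Of the 186 lower genes of the male class, 158 (84.9%) had a lower mean in the second set than in the first among the other females, against 71.8% of all genes of the class. Within line 4 of Obp50b, which has a female library in each set, the second-set library was the lower in 158 of the 186 genes, against 73.9% of the class, and within line 7 of Obp50d in 159, against 70.5%. The highest Obp50Neg value was in 6_S6 for 146 of the 186 genes (78.5%), against 58.8% of the class, and in 103 (55.4%, against 27.8% of the class) it exceeded the next library more than 2 times.

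*Sfp87B* (FBgn0259975, 3R), a seminal fluid protein gene, shows the pattern in a single gene. It had 3 counts in the 4 Obp50a libraries together, all in 61_S41 (0.115 CPM), and was at 1.97, 31.4, 1.32 and 2.09 CPM in 5_S5, 6_S6, 1_S1 and 2_S2. Every Obp50Neg library was above every Obp50a library. The pooled rate was 236-fold higher in Obp50Neg (95% counting interval 80.4 to 1147), and the fitted log2 fold change was -7.85 ± 1.44 (SE, adjusted p = 0.00351). Of the 774 counts in Obp50Neg, 647 were in 6_S6, and without it the pooled rate was 50-fold higher (16.7 to 245). Other females held 0.84 to 50.3 CPM in the first set and 0 to 0.0574 CPM in the second, with no overlap between the sets. Without 6_S6 the adjusted p was 0.0604. Males held 2692 to 2862 CPM in Obp50a and 1479 to 2053 CPM in Obp50Neg.

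*Acp53C14b*, an accessory gland protein gene, had 0 counts in Obp50a and was at 0.537, 11.2, 0.578 and 0.779 CPM in the Obp50Neg libraries, in the order given above. It was at least 21.7-fold lower in Obp50a, taking 3 counts per library as the floor (adjusted p = 0.00383), and at least 4.19-fold without 6_S6 (adjusted p = 0.0791), which held 231 of its 276 counts. *SP*, the sex peptide gene, had 2 counts in Obp50a and was at 0.268, 3.49, 0.206 and 0.615 CPM in Obp50Neg. The groups did not overlap, and its pooled rate was 44.8-fold higher in Obp50Neg (95% counting interval 12.1 to 375, adjusted p = 0.0270) and 15.3-fold higher without 6_S6 (3.84 to 133, adjusted p = 0.324). *Dup99B*, a sex peptide relative of the ejaculatory duct, had 2 counts in Obp50a and 0.402, 9.85, 0.413 and 0.656 CPM in Obp50Neg, a pooled rate 109-fold higher (29.8 to 904, adjusted p = 0.0103) that became 20.7-fold without 6_S6 (5.31 to 177, adjusted p = 0.265). *Acp36DE*, a seminal protein needed for sperm storage, was read in every library, at 2.27, 1.76, 0.695 and 2.13 CPM in Obp50a and 6.17, 41.2, 5.24 and 7.26 CPM in Obp50Neg. Its lowest Obp50Neg value was above its highest Obp50a value (log2 fold change -3.11 ± 0.59, adjusted p = 0.00434). *Sfp60F* fell by 5.98 on the log2 scale (adjusted p = 0.00499). *Acp26Aa*, the ovulin gene, did not pass the test (-2.84, adjusted p = 0.0591), and its groups overlapped.

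Genes of the ejaculatory duct and bulb and of the testis gave smaller counts. For comparison, 1.89% of all genes tested were called. The male class had 186 of 2059 genes called lower and a median log2 fold change of -0.95 over the class. Of 11 ejaculatory genes, 4 fell (36.4%; median log2 fold change -2.02) and 0 rose. These were *EbpII* (-5.15, adjusted p = 0.00499) and *Ebp* (-3.69, adjusted p = 0.0290), which encode ejaculatory bulb proteins, *CG17097* (-3.04, adjusted p = 0.00662) and *Dup99B*, which the accessory gland list also holds. *Ebp* was at 0.885, 0.519, 1.20 and 4.38 CPM in Obp50a and 3.35, 77.3, 3.76 and 3.69 CPM in Obp50Neg, so 84_S36 overlapped Obp50Neg. The sum of the list overlapped between the groups, at 364 to 717 CPM in Obp50a and 360 to 618 CPM in Obp50Neg. Of 54 testis and sperm genes, 7 fell (13%; median -1.20) and 0 rose. They include *S-Lap3* (-2.57, adjusted p = 0.0103) and *S-Lap5* (-2.63, adjusted p = 0.0154), leucyl aminopeptidases of sperm, and *Mst84Dd* (-6.05, adjusted p = 0.0164) and *Mst84B* (-1.28, adjusted p = 0.0243), male-specific transcripts. The summed testis level was 480 to 653 CPM in Obp50a and 766 to 893 CPM in Obp50Neg, without overlap. *betaTub85D*, the testis-specific tubulin gene (-2.15, adjusted p = 0.0885), and *Mst98Ca* (-1.45, adjusted p = 0.277) did not pass the test. Without 6_S6, 0 genes of either list were called, and the 7 testis genes became 3, 1 and 2 without 61_S41, 62_S42 and 84_S36.

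Some male-class genes differed without resting on 6_S6. *Rsbp15*, named as a radial spoke binding protein gene, had 3 counts in Obp50a and was at 0.760, 1.21, 0.826 and 0.492 CPM in Obp50Neg. All 4 Obp50Neg values were above those of Obp50a, the pooled rate was 22.6-fold higher (95% counting interval 7.42 to 112, adjusted p = 0.000786), and the adjusted p was 0.00364 without 6_S6 and 0.0285 with the library set as a term. *CG14546* was at 0.231, 0.199, 0.126 and 0.296 CPM in Obp50a and 2.91, 3.44, 3.84 and 4.47 CPM in Obp50Neg. Each group was tight, and the means differed 17.2-fold (log2 fold change -4.07 ± 0.68, adjusted p = 0.00103; 0.0285 with the set term). Other females averaged 0.884 CPM in the second set and 1.61 CPM in the first, above the level of Obp50a females in both. *CG14546* overlaps *CG42235*, and *Rsbp15* overlaps *CG17404*, and the counting did not use strand. *CG17819* had 0 counts in Obp50a and 0.134, 0.340, 0.660 and 0.0820 CPM in Obp50Neg, at least 2.02-fold lower (adjusted p = 0.00662). Its adjusted p was 0.0186 without 6_S6 and 0.0623 with the set term. *Rsbp15*, *CG14546* and *CG17819* were not called in females alone (adjusted p = 0.223, 0.223 and 0.236). With line as a random block they were not called either (0.367, 0.216 and 0.460). In the 8 libraries alone *CG14546* was called (0.00187) and the others were not (0.0587 and 0.252). A further 6 male-class genes, named because they were called also with counts summed by line (adjusted p = 0.0295 to 0.0303), did rest on 6_S6. In the fit of all libraries they were *CG31872* (-3.21, adjusted p = 0.00383), *CG32445* (-4.46, adjusted p = 0.00662), *CG1288* (-3.37, adjusted p = 0.0272), *CG33704* (-3.66, adjusted p = 0.0172), *Ppi1* (-2.88, adjusted p = 0.0140) and *CG5781*, which had 0 counts in Obp50a (at least 2.40-fold lower, adjusted p = 0.0236, and at least 1.38-fold without 6_S6). All 6 were highest in 6_S6, and their adjusted p without it ranged from 0.0597 for *CG32445* to 0.438 for *CG1288*.

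The other named genes with the largest falls were also male-class genes of low level in females. *CG31816* (at least 4.27-fold lower, adjusted p = 0.0350) and *lncRNA:CR32661* (at least 4.10-fold lower, adjusted p = 0.0114) had 0 counts in Obp50a, and without 6_S6 these bounds were 1.94-fold and 1.49-fold. *CG42481* was at 0.693, 0, 0 and 0 CPM in Obp50a and 1.39, 94.4, 1.73 and 1.93 CPM in Obp50Neg (adjusted p = 0.00805). *lncRNA:CR44389* (adjusted p = 0.00805) and *CG43392* (adjusted p = 0.0154) had 1 count each in Obp50a and were at 7.37 and 5.92 CPM in 6_S6.

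A further group of low genes was high in 1 Obp50Neg line only. *lncRNA:CR42790* (FBgn0261861, 3R, start 26784338) was at 1.65 and 1.55 CPM in line 30 while line 31 stood at 852 and 1336 CPM, against 0.83 to 1.20 CPM in Obp50a. Line 31 alone stood apart, and in males of line 31 the gene was again at 362 and 479 CPM, while line 30 males held 28.2 and 7.14 CPM and Obp50a males 7.54 to 10.2 CPM. The female log2 fold change was -9.07 ± 1.28 (adjusted p = 8.32e-05), and this was the 1 gene also called in the fit of females alone. *Ir67a*, a member of the ionotropic receptor family, was at 108 and 123 CPM in line 31 and at most 0.442 CPM in the other 6 libraries. Its male values showed the same split, 34.8 and 69.2 CPM in line 31 and at most 0.6005 CPM elsewhere in these genotypes. *CG33666* (X, overlapping *CG42340*) had 0 counts in Obp50a and was at 0.0447, 0.194, 1.44 and 1.48 CPM in Obp50Neg, at least 5.24-fold lower (adjusted p = 0.000648). *hydra* (X), a male-biased gene here, went the other way, with 28.3 and 24.1 CPM in line 30, only 0.537 and 0.451 CPM in line 31, and 0 to 0.269 CPM in Obp50a (-6.11 ± 0.87, adjusted p = 8.32e-05). In males *hydra* was at 86.5 to 112 CPM in all 8 libraries of these genotypes. *Ir67a* was chosen after its values were seen.

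Outside the male class, 79 genes were lower, and many of them were well expressed and even within each group. Of these, 38 averaged at least 10 CPM in Obp50Neg. The genes of this paragraph were chosen after their values were seen. *Tsp42Eh*, a tetraspanin gene, was at 83.1, 62.7, 60.8 and 50.2 CPM in Obp50a and 330, 277, 269 and 291 CPM in Obp50Neg. The groups lay far apart, with means 4.55-fold lower in Obp50a (log2 fold change -2.18 ± 0.55, adjusted p = 0.0272). *CG14692* was at 6.19, 6.22, 3.79 and 4.09 CPM in Obp50a and 128, 80.4, 54.6 and 160 CPM in Obp50Neg, a 20.9-fold difference of means (adjusted p = 0.0191). *Skeletor*, which encodes a spindle matrix protein, was at 5.69, 4.59, 5.43 and 4.32 CPM in Obp50a and 36.6, 28.3, 19.8 and 26.2 CPM in Obp50Neg. Its groups were again apart (-2.47 ± 0.53, adjusted p = 0.00903), and it was called in each of the 8 fits that left out 1 library, though not with the set term (adjusted p = 0.211). *Act88F*, the actin gene of the indirect flight muscle, was at 37, 43.4, 51.6 and 99.7 CPM in Obp50a and 167, 191, 191 and 195 CPM in Obp50Neg (-1.68 ± 0.44, adjusted p = 0.0350). *Zasp67*, a Z-disc protein gene (-1.60, adjusted p = 0.0138), *Mpcp1*, a mitochondrial phosphate carrier gene (-1.14, adjusted p = 0.0297), and *vg*, a wing and flight muscle selector gene (-0.96, adjusted p = 0.0215), also fell. *Orco*, the olfactory co-receptor gene, fell by 1.62 on the log2 scale (adjusted p = 0.0486) and *snRNA:U1:82Eb* by 3.41 (adjusted p = 0.0322). Of the 8 fits that left out 1 library, *Zasp67* was called in 6, *CG14692* and *vg* in 5, *Tsp42Eh* and *snRNA:U1:82Eb* in 4, *Mpcp1* in 3, *Act88F* in 2 and *Orco* in 0. With the set term all 9 genes missed the threshold, and the log2 fold changes of *Act88F*, *Zasp67*, *Mpcp1* and *vg* shrank to -0.87, -0.77, -0.47 and -0.39.

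Library set was related to many of these genes too, though not within every line. Among other females, *Tsp42Eh* had a median of 159 CPM in the first set (range 36.6 to 463) and 69.3 CPM in the second (51.3 to 122). For *CG14692* the medians were 58.5 and 6.32 CPM, for *Skeletor* 13.6 and 4.13 CPM, and for *Act88F* 73.8 and 53.6 CPM. For *Tsp42Eh*, *CG14692* and *Skeletor* every Obp50a female lay nearer to the second-set median. For *Act88F* the highest Obp50a female lay above the second-set range of 33.8 to 81.1 CPM and nearer to the first-set median. Its other Obp50a females lay nearer to the second-set median. All Obp50Neg females were above both *Act88F* medians, within the first-set range of 44.7 to 340 CPM. Of the 79 genes, 61 (77.2%) had a lower mean in the second set among other females, against 61% of all genes outside the male class. Within line 4 of Obp50b the second-set library was the lower in 57 of the 79 genes (72.2%), against 50.9% of all genes outside the class. Within line 7 of Obp50d it was the lower in 43 (54.4%), against 55.9%. The males share no library with the females but come from the same lines, so the male reading is not independent of line. Line 11 of their Obp50a libraries is also in the second set. Of the 79 genes, 58 (73.4%) were lower in Obp50a males, against 49.5% of all genes outside the class, and in 16 (20.3%, against 8.87%) the male groups did not overlap in that direction. *vg* was at 10.04, 10.9, 11.2 and 8.57 CPM in the Obp50a males and 19.6, 20.3, 20.01 and 20.1 CPM in the Obp50Neg males. Its female values were 6.39, 5.70, 5.75 and 8.35 CPM and 13.8, 13.3, 11.6 and 12.3 CPM, so that the groups were apart by a like amount in each sex.

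**Figure D3:**
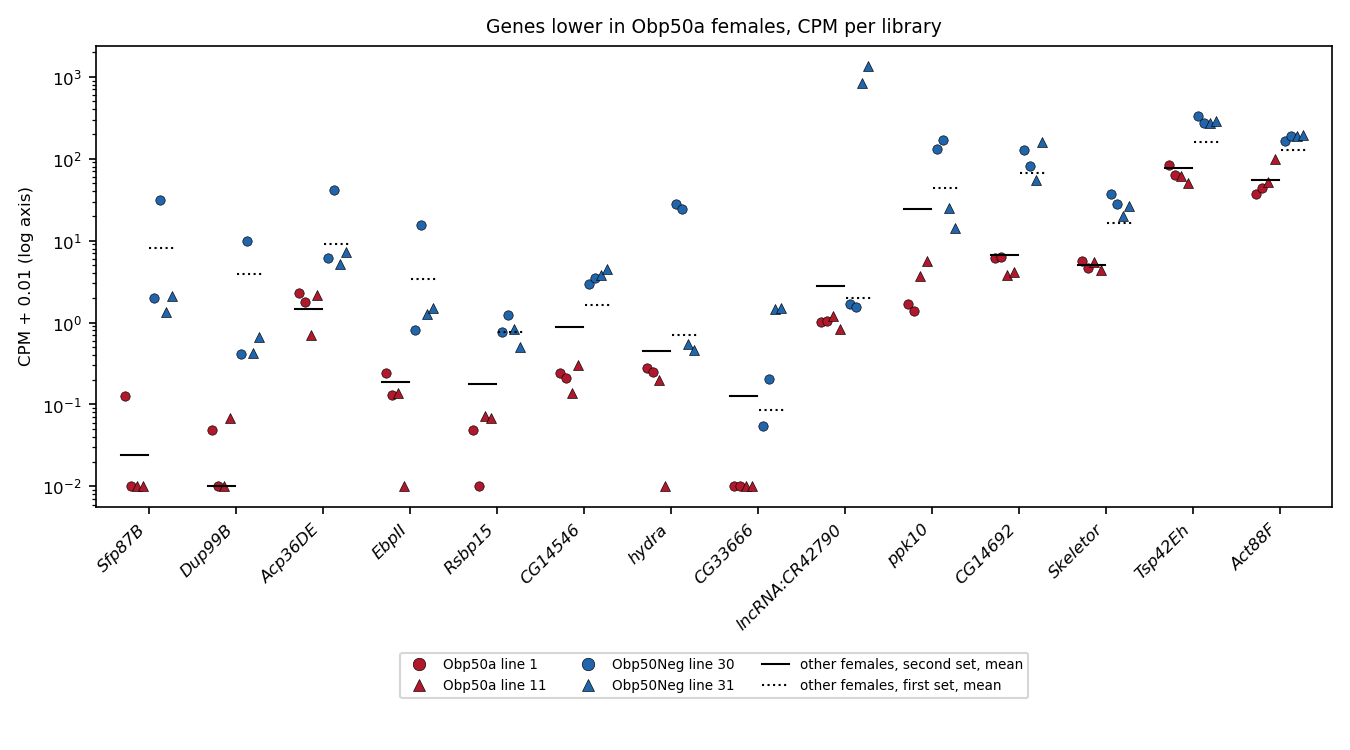
CPM plus 0.01 (log axis) of 14 genes lower in Obp50a females, 1 point per library, with Obp50a in red and Obp50Neg in blue; solid and dotted lines are the means of other females of the second and first set. *Sfp87B* is highest in 1 Obp50Neg library (31.4 CPM), *lncRNA:CR42790* in the line 31 libraries (852 and 1336 CPM), and *Tsp42Eh* is even within both groups.

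Far fewer genes were higher in Obp50a, and 21 of the 32 had groups that did not overlap, against 1.45% of all genes tested that were apart in that direction. The most abundant was *sr* (stripe, FBgn0003499, 3R, 18090803 to 18135583), an EGR-type transcription factor of tendon cells, to which muscles attach. It was at 816, 664, 769 and 733 CPM in Obp50a and 295, 253, 20.6 and 14.4 CPM in Obp50Neg. All Obp50a libraries were high, and the lines of Obp50Neg differed, with line 31 far below line 30. Its means differed 5.12-fold (log2 fold change 2.36 ± 0.60, adjusted p = 0.0278), and it was the 1 gene called with line as a random effect. That fit took the same correlation of 0.25 between libraries of a line for every gene. In the mixed model, which also has a random line term, *sr* was not called. Nor was it called with counts summed by line (adjusted p = 0.457), in females alone (0.268) or in the 8 libraries alone (0.366). Other females ranged from 91.7 to 1253 CPM (median 249) in the first set and from 126 to 1203 CPM (median 1164) in the second. In males the groups overlapped, at 69.3 to 149 CPM and 33.4 to 93.5 CPM. The call held without 6_S6 (adjusted p = 0.0493) and was lost without 1_S1 (adjusted p = 0.0856), 2_S2 (0.0682) or 84_S36 (0.0566), and with the set term (adjusted p = 0.454).

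Other genes that rose were of lower level. *CG34447* was at 3.19, 2.47, 11.9 and 20.3 CPM in Obp50a and 1.21, 0.921, 0.330 and 0.328 CPM in Obp50Neg (3.76 ± 0.98, adjusted p = 0.0322). *CG5681* was at 5.50, 6.02, 18 and 35.1 CPM against 2.68, 2.76, 1.90 and 0.902 CPM (2.97 ± 0.75, adjusted p = 0.0273). In both genes line 11 was above line 1 within Obp50a, and the groups did not overlap. *nw* (narrow), a C-type lectin gene of wing shape, was at 12.7, 11.5, 26.5 and 41.8 CPM against 6.22, 4.27, 6.89 and 2.46 CPM (2.22 ± 0.62, adjusted p = 0.0497). *CG15638* (2.42, adjusted p = 0.0340), *CG15128* (2.57, adjusted p = 0.0233) and *CG31704* (1.91, adjusted p = 0.0305) rose as well, as did the noncoding *asRNA:CR43787* (4.81, adjusted p = 0.0262), *lncRNA:CR44298* (1.61, adjusted p = 0.0375) and *lncRNA:CR45808* (1.49, adjusted p = 0.0233). *asRNA:CR43787* had 1 count in the Obp50Neg libraries and at most 0.695 CPM in Obp50a. Of these 9 genes and *sr*, *sr* and *CG15638* (adjusted p = 0.0148) were called without 6_S6. Of the 32 higher genes 19 (59.4%) overlap another gene, against 45.4% of all genes tested, among them *sr*, *CG15638*, *CG31704* and the 3 noncoding genes.

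The following genes were chosen after their values were seen. *ths* (thisbe), which encodes a fibroblast growth factor ligand of the Heartless receptor, was even in both groups, at 60.9, 61.7, 44.3 and 48.3 CPM in Obp50a and 24.3, 20.4, 27.6 and 25.3 CPM in Obp50Neg. Its means differed 2.20-fold (1.14 ± 0.30, adjusted p = 0.0322), while its male values overlapped at 51.7 to 54.5 and 45.9 to 57.3 CPM. Other females had a median of 28.6 CPM of *ths* in the first set and 50.8 CPM in the second. It was called in 2 of the 8 fits that left out 1 library. The adjusted p was 0.144 without 6_S6 and 0.231 with the set term. *CkIIalpha-i3*, named as an interactor of casein kinase II, was higher in both sexes, at 36.8, 37, 25.6 and 34 CPM against 12.9, 13.5, 14.6 and 16.7 CPM in females (1.21 ± 0.28, adjusted p = 0.0154). The male values were 23.8, 22.2, 14.9 and 18.1 CPM in Obp50a and 9.48, 10.8, 7.82 and 10.6 CPM in Obp50Neg, so the groups were apart in males too. Some calls came from 1 Obp50a line. *CG13359* was at 388 and 346 CPM in the line 11 libraries but at 3.04 and 1.48 CPM in those of line 1. For *CG3491* line 1 was the higher (13.2 and 16.4 CPM, against 0.758 and 2.96 CPM), as it was for *CG15059* (10.5 and 4.47 CPM, against 0.190 and 0.83 CPM).

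**Figure D4:**
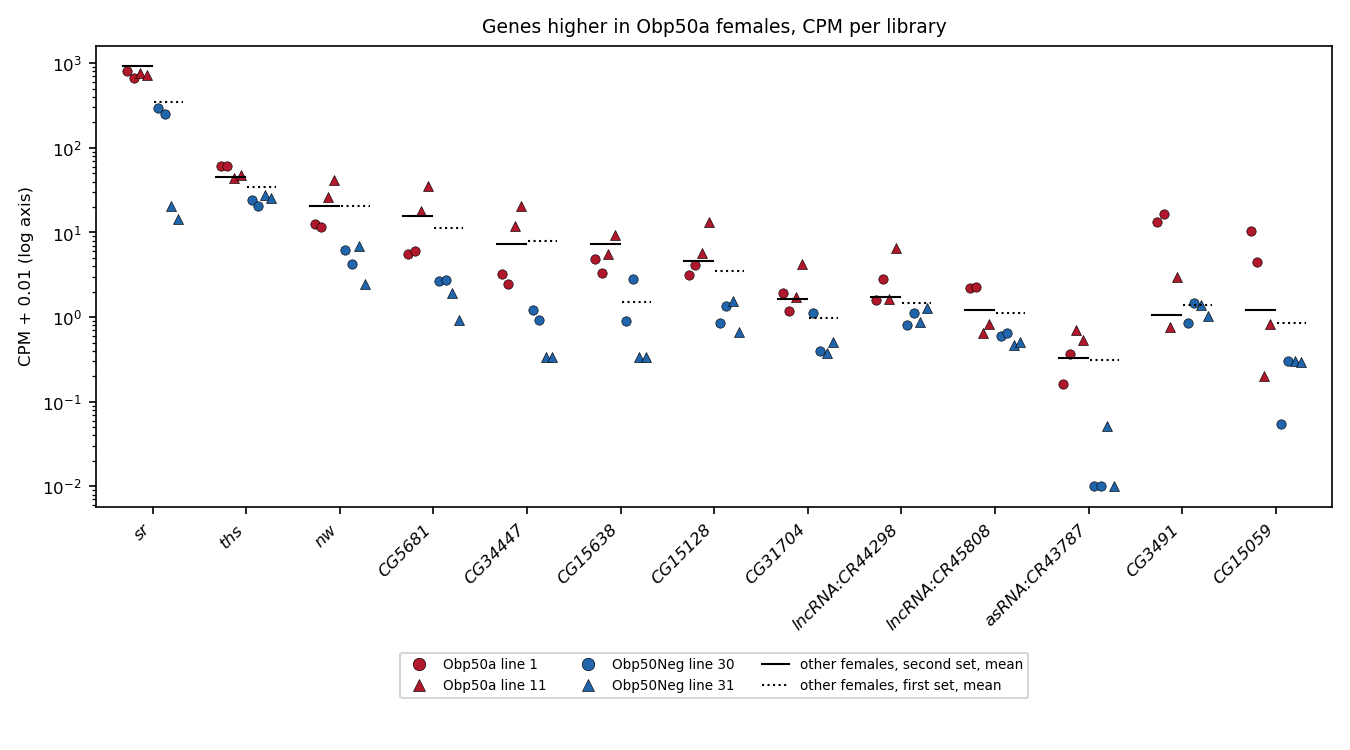
CPM plus 0.01 (log axis) of 13 genes higher in Obp50a females, 1 point per library, with symbols and lines as in the plot of lower genes. *sr* lies at 664 to 816 CPM in Obp50a and 14.4 to 295 CPM in Obp50Neg, *ths* is even within both groups, and *CG15059* and *CG3491* are high in line 1 of Obp50a alone.

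Among the other gene lists, few members passed the test. Of 45 odorant-binding protein genes tested, 1 fell and 0 rose (2.22%, close to the 1.89% called of all genes tested). The gene was *Obp99d*, with 0 counts in Obp50a and at most 0.388 CPM in Obp50Neg (at least 1.20-fold lower, adjusted p = 0.0328, and no bound without 6_S6). Of 26 pickpocket sodium channel genes, *ppk10* alone fell (3.85%, against the same 1.89%). It was at 1.69, 1.36, 3.66 and 5.63 CPM in Obp50a and 130, 171, 25.1 and 14.4 CPM in Obp50Neg, so that line 30 was the highest and every Obp50Neg library was above every Obp50a library (-4.81 ± 1.16, adjusted p = 0.0223). The male groups did not overlap either, at 2.77 to 9.57 CPM in Obp50a and 14.4 to 78.6 CPM in Obp50Neg, and other females of the first set ranged from 0.304 to 334 CPM.

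Of 92 cuticle protein genes, 5 fell and 1 rose (6.52%, against 1.89% of all genes tested; median log2 fold change -0.61). *Cpr47Ea*, which overlaps *Or47a*, was at 0.269, 0.279, 0.379 and 0.0592 CPM in Obp50a and 2.77, 1.65, 3.47 and 4.22 CPM in Obp50Neg (-3.59 ± 0.71, adjusted p = 0.00660). Its groups were clearly apart, and it was called without 6_S6 (adjusted p = 0.00972). *Cpr92F* (-2.73, adjusted p = 0.0262), *Cpr100A* (-1.47, adjusted p = 0.0323) and *Ccp84Ad* (-3.09, adjusted p = 0.0325) fell too. Without 6_S6 *Cpr92F* was still called (adjusted p = 0.0342), while *Cpr100A* (adjusted p = 0.09996) and *Ccp84Ad* (adjusted p = 0.0604) were not. The summed cuticle level of 408, 405, 812 and 1152 CPM in Obp50a spanned the 496 to 605 CPM of Obp50Neg, with line 11 above and line 1 below.

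Of 28 Turandot and heat shock genes, 2 fell (7.14%, against 1.89% of all genes tested). These were *Hsp60B*, a chaperonin paralog needed for sperm individualization (-2.35, adjusted p = 0.00805), and *Hsc70-1* (-0.66 ± 0.17, adjusted p = 0.0332). *Hsc70-1* was at 35.8, 34.9, 47.5 and 61.4 CPM in Obp50a and 71.9, 73.2, 64.1 and 73.7 CPM in Obp50Neg, and the groups did not overlap. Without 6_S6 neither *Hsp60B* (adjusted p = 0.121) nor *Hsc70-1* (adjusted p = 0.119) was called.

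In the remaining lists 0 genes were called by edgeR's test. All 33 antimicrobial peptide genes tested had a log2 fold change above 0 (median 0.52), of which 7 had an unadjusted p below 0.05, and their summed level of 1421 to 3493 CPM in Obp50a overlapped the 1440 to 2221 CPM of Obp50Neg. The highest sums were in line 11. The 21 chorion and vitelline membrane genes of the eggshell (median 0.32), 22 maternal germline genes (0.10), 3 yolk protein genes (-0.19), 8 clock genes (0.03) and 28 Jonah protease and trypsin genes (0.04) had 0 with an unadjusted p below 0.05. *Yp1*, a yolk protein gene, changed by -0.38 (adjusted p = 0.947). Of 8 spermatheca genes (median -0.10), 1 was higher and 1 lower at an unadjusted p below 0.05, and of 83 cytochrome P450 genes (-0.09) 6 and 9 were. For comparison, 2051 of all 15675 genes tested had an unadjusted p below 0.05 in females, in either direction.

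The difference between the sexes was tested with the interaction of sex and genotype. In males the same contrast called 0 genes (0%; 1028 at an unadjusted p below 0.05). The female effect differed from the male effect in 52 genes (0.332%), which were all among the 297. In 51 the female change was the more negative and in 1, *CG15059*, the more positive. Of the 52 genes, 47 belonged to the male class (90.4%). The smallest p values were those of *hydra* (difference -6.19 ± 1.05, adjusted p = 0.00637), *CG33666* (-7.74 ± 1.32, adjusted p = 0.00637), *Rsbp15* (-4.35 ± 0.79, adjusted p = 0.00805), *CG42659* (-3.21 ± 0.59, adjusted p = 0.00805) and *CG14546* (-4.18 ± 0.83, adjusted p = 0.0181). *CG42659* was at 0.577, 0.479, 0.442 and 0.237 CPM in Obp50a females and 1.88, 4.07, 1.28 and 1.35 CPM in Obp50Neg females. In males it averaged 170 CPM in Obp50a and 86.8 CPM in Obp50Neg, the reverse order. The count depended on single libraries, being 17, 6, 32 and 10 without 61_S41, 62_S42, 83_S35 and 84_S36, 3 without 6_S6, 92 without 2_S2 and 140 without 5_S5, and between 3 and 18 without each of the 8 male libraries.

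**Figure D5:**
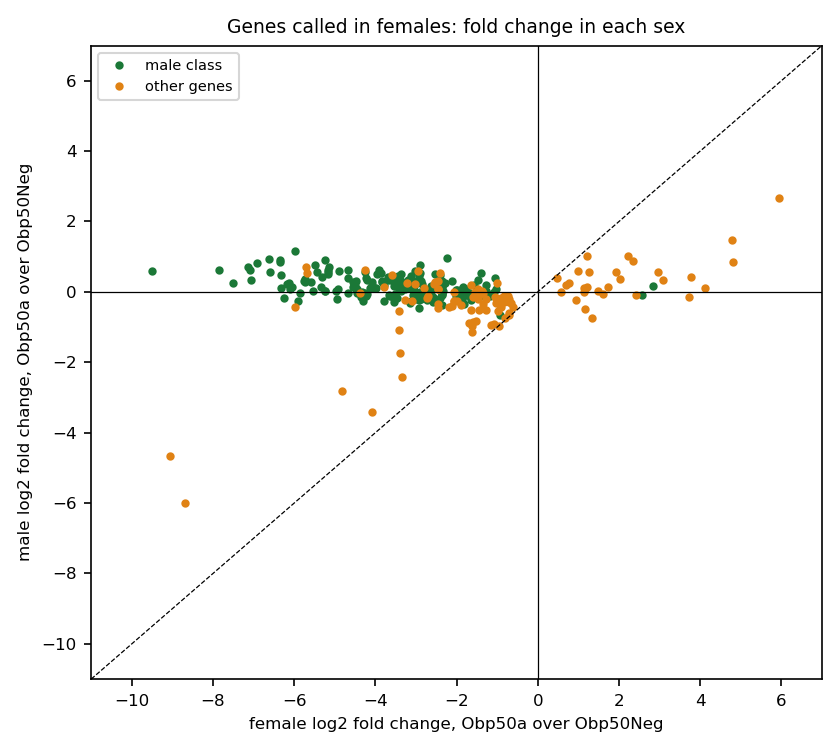
Male against female log2 fold change of Obp50a over Obp50Neg for the 297 genes called in females, 1 point per gene; the dashed line marks equal change. Male-class genes (green) spread widely along the female axis with a median male value of 0.13, while some other genes (orange), such as *lncRNA:CR42790*, are low in both sexes.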

How the data were processed

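RNA was measured in 56 libraries, and the 8 female Obp50a and Obp50Neg libraries were compared. The authors depleted ribosomal RNA, used GSNAP for alignment and featureCounts 1.6.4 to count unique fragments on exons regardless of strand, and deposited the raw counts. Of 17490 genes, 15675 were tested: those counted above 0 in 25% or more of the libraries, with a median of 2 or more. edgeR 4.0.16 (R 4.3.3) fitted its quasi-likelihood test with TMM to 54 libraries (2 were left out by the study), with 16 means of sex and genotype, and p values were adjusted by Benjamini-Hochberg over all genes tested. Alternatives used DESeq2 1.42.0, limma 3.58.1 and lmerTest 3.1.3 with lme4 1.1.37. The procedure was tested on simulated counts drawn without differences between lines, library sets or single libraries, so that test does not cover such differences. The members, the 16 gene lists and the naming rule were chosen with earlier results of these data known.

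Named genes were the 10 higher and 10 lower called genes with the largest change and no overlap, those called also in females alone, with line as a random block or in the mixed model, the 10 smallest p with counts summed by line, the 5 smallest interaction p, the cluster genes, and up to 4 called members of each list with its defining members. Counting intervals and the floor of 3 counts cover counting error only. p values measure the spread between libraries, which share lines. Overlapping genes and close copies are uncertain in these counts. Sequences were not used here.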

Additional observations from a re-analysis of the deposited data

Results flagged for a closer look

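In a group of 4 libraries, 1 value lay far from the other 3 by Dixon's criterion in 31 of the 150 groups examined, and about 1 in 20 is flagged by chance. In 22 of them the library was 6_S6 of Obp50Neg, at the highest value of its group. These were *Acp53C14b* at 11.2 CPM, *Sfp87B* at 31.4, *Dup99B* at 9.85, *Acp36DE* at 41.2, *Sfp60F* at 53.5, *SP* at 3.49 and *Acp26Aa* at 5.33 CPM among seminal fluid genes, with the accessory gland list summing to 451 CPM. Ejaculatory genes were *EbpII* at 15.5 CPM, *CG17097* at 19.9 and *Ebp* at 77.3. Testis genes were *S-Lap3* at 4.66 CPM, *Mst84Dd* at 3.93 and *betaTub85D* at 7.95, with *Hsp60B* at 4.46 CPM. The others were *CG42481* at 94.4 CPM, *CG31872* at 15.8, *CG32445* at 1.36, *CG1288* at 5.04, *CG43392* at 5.92, *lncRNA:CR44389* at 7.37 and *lncRNA:CR32661* at 1.79 CPM.

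The other flagged libraries mostly held the only counts of their group. In 61_S41 of Obp50a these were *Sfp87B* at 0.115 CPM, *CG42481* at 0.693, *CG33704* at 0.192, *lncRNA:CR44389* at 0.0385 and *Mst84Dd* at 0.0385 CPM, and in 83_S35 *CG43392* at 0.0632 CPM. *Cpr100A* was low in 84_S36, at 1.18 CPM, *CG31704* was high in 5_S5 of Obp50Neg, at 1.12 CPM, and *asRNA:CR43787* was read in 1_S1 only, at 0.0413 CPM.

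The female effect differed from the male effect in 52 genes by edgeR's interaction test. Among the genes named above, the female minus male log2 fold change was -10.09 for *Acp53C14b*, -8.47 for *Sfp87B*, -7.74 for *CG33666*, -7.70 for *lncRNA:CR44389*, -7.41 for *lncRNA:CR32661*, -7.74 for *CG42481* and -7.55 for *Dup99B*. It was -7.15 for *CG43392*, -7.13 for *Sfp60F*, -6.81 for *CG5781*, -6.38 for *CG17819*, -6.19 for *hydra* and -5.86 for *EbpII*. Smaller differences were -4.45 for *CG32445*, -4.35 for *Rsbp15*, -4.18 for *CG14546*, -4.07 for *Cpr47Ea*, -4.00 for *CG33704*, -3.39 for *CG31872*, -3.32 for *Acp36DE* and -3.21 for *CG42659*.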

How the results depend on the processing

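The 297 genes became 182 with DESeq2's size factors (28 higher), 591 with DESeq2 (110 higher), 159 with all 56 libraries, 70 with the 8 libraries alone (12 higher) and 69 with counts summed by line. They became 11 with the library set as a term, 1 with females alone (1364 at an unadjusted p below 0.05), 1 with line as a random block (1027), and 0 in the mixed model (343) and with females alone and the set as a term (570), the last chosen after the data were seen. DESeq2 called 290 of the 297, and counts summed by line 62. Without 1 library the count ranged from 56 to 348. The 52 interaction genes became 17 with DESeq2's size factors, 281 with DESeq2, 29 with no filter, 17 with all 56 libraries, 33 with robust dispersion, 13 with the set term, 2 in the mixed model, 1 with counts summed by line, and 0 with line as a random block (1218 at an unadjusted p below 0.05). Without 1 library they ranged from 3 to 140. The sign turned for 3 named genes, all with females alone and the set as a term: *Sfp87B* (0.72), *CG42481* (1.46) and *Dup99B* (0.47), each at an adjusted p of 1. The causes were not tested. No paired analysis was possible because the groups share no replicate number.

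Genotype and library set coincide here, each genotype has 2 lines, and the line 1 and line 11 libraries differ in transcript length. Many of the lower genes rest on few counts: 74 of the 265 had at most 3 counts over the 4 Obp50a libraries, 27 of them 0, so their fold changes are bounds or have wide counting intervals.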

Other observations

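Some genes were apart in both sexes, in comparisons that share lines but no library. Of the 32 genes higher in Obp50a females, 8 (25%) also had male groups that did not overlap in that direction, against 7.14% of all genes tested. The 8 include *CG13359*, which was high in males of line 11 only, at 111 and 136 CPM. Its line 1 males, at 10.98 and 11.7 CPM, were barely above the 9.89 to 10.98 CPM of Obp50Neg males. *Sf3b5*, a subunit gene of the spliceosomal SF3b complex, was at 39.8, 39.3, 59.6 and 63.2 CPM in Obp50a females and 30.5, 24.1, 19.8 and 26.9 CPM in Obp50Neg females (log2 fold change 1.00 ± 0.23, adjusted p = 0.0140). Its male values were 15.4 to 19.2 and 10.6 to 12 CPM (male adjusted p = 0.532). *PPO2*, a prophenoloxidase gene of crystal cells, which serve melanization, was at 28.2, 28, 18.5 and 30.5 CPM in Obp50a females and 39.2, 46.5, 45.7 and 41.7 CPM in Obp50Neg females (-0.72 ± 0.19, adjusted p = 0.0341). In males it was at 31.1 to 37 and 51.9 to 55 CPM (male adjusted p = 0.280), while other females averaged 30.8 CPM in the second set and 32.3 CPM in the first. *Mpcp1* was at 126 to 201 and 330 to 362 CPM in females and 335 to 417 and 608 to 848 CPM in males. These genes were chosen after their values were seen, and none passed the test in males.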
